A study of Mus musculus with 9 samples.

Results

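The 51 genes described here encode the machinery of protein entry, folding and quality control in the endoplasmic reticulum (ER), together with the sensors of the unfolded protein response. They were taken from a fixed list of gene symbols, and all 51 were found among the 54532 genes of the count tables and passed the filter on low counts, which left 15348 genes. They comprise 9 translocon genes, 5 of the signal peptidase complex, 6 of oligosaccharyltransferase, 9 of the chaperones BiP and GRP94 and their partners, 2 lectin chaperones, 7 folding catalysts, 8 of ER-associated degradation and 5 stress sensors with their effector Xbp1. RNA-seq was run on sublingual glands, the mucous salivary glands under the tongue, of wild-type mice. The groups were 3 glands taken 7 days after 10 Gy of radiation, 3 taken 14 days after the same dose and 3 that received none. RNA came from tissue sections of each gland. The labels give no strain, age, sex or irradiated field, nor do they say whether each replicate was a separate animal. The spread behind the p-values may therefore hold technical as well as biological variation.

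Secreted and membrane proteins enter the ER through the Sec61 channel, lose their signal peptide to the signal peptidase complex and receive N-linked glycans from oligosaccharyltransferase. BiP (Hspa5), GRP94 (Hsp90b1), lectin chaperones and disulphide isomerases then fold them, and proteins that fail are sent back to the cytosol for degradation. When unfolded protein accumulates, the sensors IRE1α (Ern1), PERK (Eif2ak3) and ATF6 start the unfolded protein response. IRE1α splices the Xbp1 transcript, PERK slows translation and favours that of Atf4, and both XBP1 and ATF6 raise many of the chaperone genes listed here. Mucous acinar cells, which make large, heavily glycosylated mucins, depend on this machinery.

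A known binding element of ATF6 with the factor NF-Y is the ER stress response element (ERSE), in which CCAAT and CCACG are separated by 9 bases. It was searched on both strands in the 300 bases around each RefSeq start site (250 before to 50 after it, GRCm38.p6). Windows of 42 of the 51 genes were searched, and Sec11c was among the genes without a searched window. ERSE was present at 8 of these 42 genes (19.05%), against 37 of the 27025 genes with a searched window (0.137%). Another form, ERSE-II, in which ATTGG and CCACG are separated by 1 base, was present at 2 of the 42 (4.76%, against 0.044% of the 27025). The core of the unfolded protein response element, TGACGTGG, was present at 1 gene, Txndc5 (2.38%, against 0.714%). That core holds CCACG in reverse, and none of the matches overlapped a match of another motif. These searches are matches of letters only and do not show binding. The elements of genes whose levels are given below follow, read 5′ to 3′ along the gene's strand with 5 bases on each side and with the fixed letters of the motif in capitals.
Creld2 (ERSE in reverse, chr15:88819515-88819543, plus strand): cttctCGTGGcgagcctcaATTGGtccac
Calr (ERSE in reverse, chr8:84847070-84847098, minus strand): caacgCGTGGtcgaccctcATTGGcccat
Pdia6 (ERSE, chr12:17266486-17266514, plus strand): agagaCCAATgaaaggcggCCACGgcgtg
Hspa5 (ERSE, chr2:34772020-34772048, plus strand): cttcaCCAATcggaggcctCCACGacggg
Canx (ERSE, chr11:50325795-50325823, minus strand): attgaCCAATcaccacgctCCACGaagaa
Herpud1 (ERSE-II, chr8:94386372-94386392, plus strand): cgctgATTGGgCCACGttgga
Dnajb11 (ERSE-II, chr16:22857847-22857867, plus strand, downstream of the start): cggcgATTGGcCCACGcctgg
Dnajc3, Hsp90b1 and Syvn1 were the other 3 genes with ERSE, and Hsp90b1 held it at 2 places.

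Each library held between 15962399 and 19441239 counts in total. Levels are given in CPM, which put libraries of different depth on a common scale. A count of 3 was worth 0.1543 to 0.1879 CPM, far below the level of each of the 51 genes. The biological coefficient of variation over all genes was 16.1%, and the counting error of the 51 genes was below it. In single groups the observed spread was narrower, as for Derl1 in controls (113 ± 0.920 CPM, SD, n = 3). There counting error was not small beside it. Counting error was also not small for genes of other lists with few counts, such as Ern2 and Tnfrsf17. The 51 genes together held 1.3939% to 1.5918% of a library's counts. Control library 3 stood apart from the other controls: the chi-square per degree of freedom against them was 123.746 and 86.917, while other pairs within a group lay between 9.191 and 28.6. Submandibular granular duct markers, which mark the neighbouring gland, summed to 374 CPM in that library, against 56.9 and 61.9 CPM in the other controls. They summed to 32.3 to 46.3 CPM at day 7 and 45.2 to 109 CPM at day 14. The sublingual mucin Muc19, a defining product of this gland, averaged 32918 ± 2501 CPM at day 7 and 42734 ± 4063 CPM in controls (SD, n = 3 each).

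Per kilobase of exon, P4hb was the most abundant of the 51 genes in controls, at 551 ± 35.8 CPM per kb (SD, n = 3). P4hb encodes the main protein disulphide isomerase. Xbp1 came next at 437 ± 13.6 CPM per kb, then Herpud1 at 287 ± 12.1, Pdia3 at 282 ± 22.4 and Txndc5 at 259 ± 15.9, whose spreads overlapped. Calr followed at 205 ± 10.7 CPM per kb. The stress sensors lay towards the lower end of this scale: Eif2ak3 had 26.2 ± 2.77, Ern1 8.77 ± 2.77 and Atf6 8.09 ± 1.94 CPM per kb in controls, and Derl2, a degradation channel subunit, was lowest at 6.80 ± 0.758. These levels use the summed length of all annotated exons and so understate genes whose longest isoforms are not made.

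The comparison of day 7 with control asks how the ER genes stood a week after radiation. At day 7, 22 of the 51 genes fell, 3 rose and 26 did not pass the threshold, an adjusted p under 0.05 in edgeR's quasi-likelihood test over all genes. The share that fell was 43.1%, against 14.8% of all genes tested, and the share that rose was 5.88%, against 15.8% of all genes tested. Apart from Os9 and Atf6b, the genes that fell serve protein entry and folding, with Manf 1.99-fold, Creld2 1.93-fold and Sdf2l1 1.88-fold lower. The 3 that rose were the sensors Ern1 and Eif2ak3 and the degradation adaptor Sel1l. In bulk tissue, fewer cells of a type and less RNA per cell cannot be told apart.

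The median log2 change of the 51 genes was −0.23, against 0.02 over all genes. The day 7 and control libraries did not overlap in 33 of the 51 genes (64.7%, against 43.9% of all genes), and 24 of these 33 were among the 25 that passed (49.0%, against 30.6% of all genes in either direction). Of the 22 that fell, 16 passed however any 1 of the 9 libraries was left out, and of the 3 that rose Eif2ak3 did. Without control library 3, 25 fell (against 16.4% of all genes in that fit) and 5 rose (against 17.3%), among them all 22 and all 3. The genes that did not pass lay between log2 −0.38 and 0.26.

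**Figure D1:**
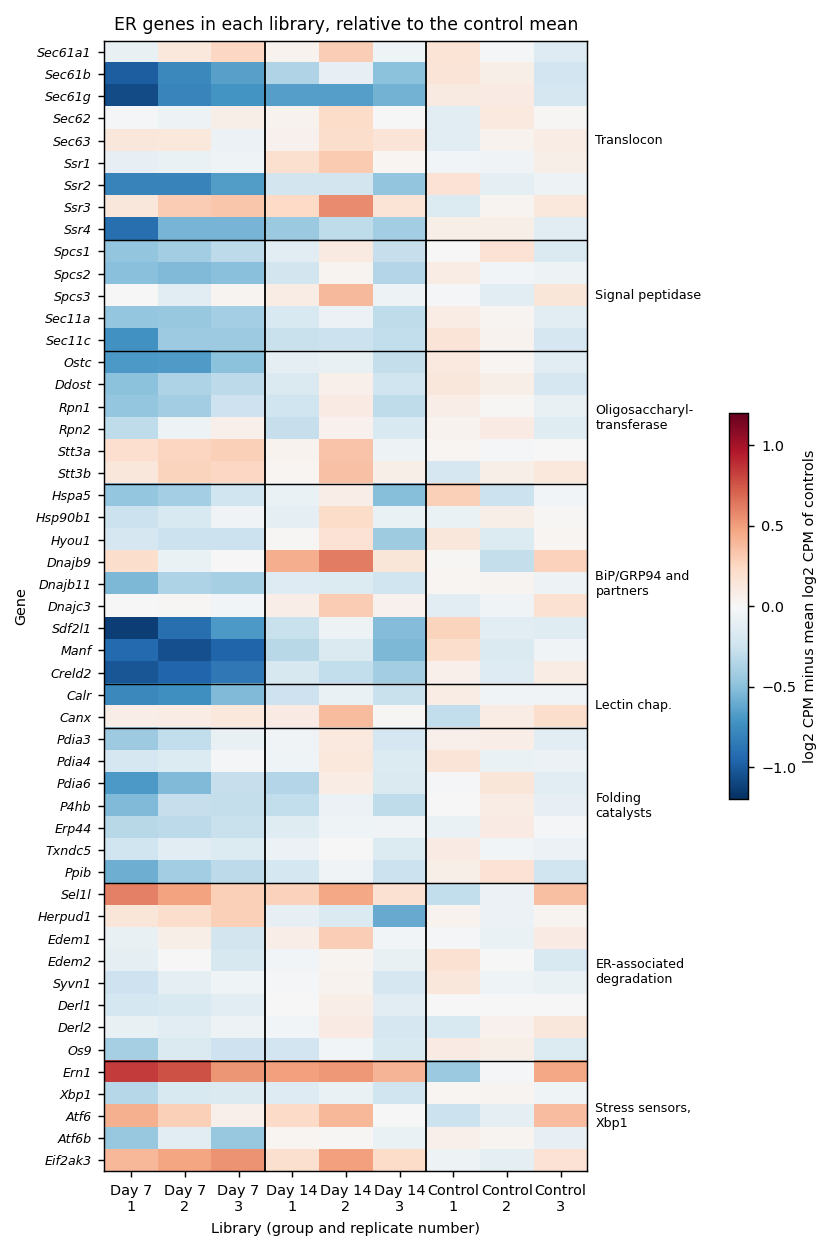
Each row is one of the 51 genes, ordered by role, and each column a library; colour gives log2 CPM minus the mean log2 CPM of the 3 controls, blue lower and red higher. The day 7 columns are blue for most genes of protein entry and folding, as for Manf (log2 change −0.99), and red for Ern1 (0.67), while the day 14 columns are paler.

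Of the 9 translocon genes, 4 fell at day 7 and none rose (14.8% of all genes fell and 15.8% rose). Their median log2 change was −0.08. Sec61b, the β subunit of the Sec61 channel, had 105, 122 and 133 CPM at day 7, 163, 195 and 149 CPM at day 14 and 233, 220 and 178 CPM in controls. Every day 7 library lay below every other library, and the day 7 fall was log2 −0.81 (SE 0.120, adjusted p = 0.000126). Sec61g, the γ subunit (chr11:16500530-16508484), had 47.7, 58.0 and 60.9 CPM at day 7, 63.4, 63.5 and 67.8 CPM at day 14 and 108, 107 and 87.1 CPM in controls. All 6 irradiated glands lay below all controls, with a day 7 change of log2 −0.86 (SE 0.111, adjusted p = 3.63e-05). Sec61g has near-identical copies elsewhere in the genome, of which Gm10177 held 81 counts in all libraries against 11518 for Sec61g. Sec61a1, the channel's pore-forming subunit, averaged 878 ± 102 CPM at day 7 and 820 ± 90.8 CPM in controls (SD, n = 3 each) and did not pass (log2 0.10, adjusted p = 0.54).

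Ssr1 to Ssr4 encode the subunits of TRAP, a complex beside the channel that helps some signal sequences enter. Ssr2 had 99.9, 100 and 110 CPM at day 7, 150, 150 and 126 CPM at day 14 and 197, 162 and 167 CPM in controls, so the 3 groups did not overlap. It fell at day 7 by 0.76 on the log2 scale (SE 0.100, adjusted p = 4.09e-05). Ssr4 had 146, 186 and 186 CPM at day 7, 201, 221 and 204 CPM at day 14 and 286, 287 and 248 CPM in controls. Its groups did not overlap either, and the day 7 change was log2 −0.66 (SE 0.102, adjusted p = 0.000123). Ssr1 and Ssr3 did not pass, at log2 −0.08 and 0.26. Sec62 and Sec63, which serve entry after translation, were at log2 −0.01 and 0.06.

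Of the 5 signal peptidase genes 4 fell (against 14.8% of all genes), with a median of log2 −0.45. Spcs2 had 156, 153 and 156 CPM at day 7, 189, 226 and 173 CPM at day 14 and 235, 216 and 212 CPM in controls. Its day 7 libraries were the lowest and close to each other, and the change was log2 −0.51 (SE 0.097, adjusted p = 0.00073). Sec11c, one of the catalytic subunits, had 172, 211 and 210 CPM at day 7, 236, 238 and 232 CPM at day 14 and 318, 293 and 248 CPM in controls. The groups did not overlap (day 7 change log2 −0.54, SE 0.103, adjusted p = 0.000782). Sec11a, the other catalytic subunit, had 46.6, 47.1 and 48.5 CPM at day 7, 56.7, 61.2 and 52.3 CPM at day 14 and 68.6, 66.0 and 59.0 CPM in controls. It was lowest in the day 7 libraries (log2 −0.45, SE 0.101, adjusted p = 0.00278). Spcs1 had 104, 108 and 116 CPM at day 7, 131, 155 and 119 CPM at day 14 and 144, 162 and 128 CPM in controls. It fell by 0.40 on the log2 scale (SE 0.107, adjusted p = 0.0081), a call lost without control library 2, and its exons overlap those of Glt8d1 on the other strand. Spcs3 did not pass (log2 −0.04, adjusted p = 0.837).

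Oligosaccharyltransferase exists in forms built on the catalytic subunits STT3A and STT3B. Of its 6 genes 3 fell (against 14.8% of all genes), none of them catalytic, and the median was log2 −0.24. Ostc, which joins the STT3A form to the translocon, had 113, 114 and 130 CPM at day 7, 169, 172 and 150 CPM at day 14 and 198, 185 and 166 CPM in controls. Its day 7 libraries lay apart from both other groups (log2 −0.62, SE 0.096, adjusted p = 0.000129). Ddost had 198, 216 and 224 CPM at day 7, 248, 291 and 236 CPM at day 14 and 306, 293 and 243 CPM in controls. Rpn1 had 243, 251 and 283 CPM at day 7, 285, 360 and 272 CPM at day 14 and 354, 338 and 315 CPM in controls. Both of these shared subunits were below every control at day 7, Ddost by log2 −0.40 (SE 0.104, adjusted p = 0.00679) and Rpn1 by log2 −0.37 (SE 0.106, adjusted p = 0.0116), and the call of Rpn1 was lost without day 7 library 1 or 2. Stt3a and Stt3b did not pass, at log2 0.25 (adjusted p = 0.0618) and 0.21 (adjusted p = 0.137), though their day 7 libraries did not overlap the controls.

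BiP itself was not among the genes that passed, while 4 of its partners fell, in a group of 9 genes (14.8% of all genes fell). Hspa5 had 371, 387 and 434 CPM at day 7, 484, 541 and 359 CPM at day 14 and 626, 430 and 500 CPM in controls. The controls spread more widely than the day 7 libraries and overlapped them, and the change was log2 −0.38 (SE 0.152, adjusted p = 0.0722). Manf, a secreted ER stress protein that binds BiP (chr9:106838312-106891979), had 71.5, 65.6 and 70.1 CPM at day 7, 108, 121 and 93.4 CPM at day 14 and 158, 121 and 132 CPM in controls. Its day 7 libraries lay well below all others (log2 −0.99, SE 0.112, adjusted p = 1.42e-05). Manf shares exon sequence with genes on the other strand, chiefly Dcaf1, and whether reads were counted by strand is not given in the sources used here.

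Creld2, an ER stress-inducible protein with disulphide isomerase activity (chr15:88819646-88826683), had 34.7, 36.7 and 39.2 CPM at day 7, 62.1, 57.8 and 53.0 CPM at day 14 and 74.1, 63.7 and 75.4 CPM in controls. The 3 groups did not overlap, with day 14 between day 7 and control (day 7 change log2 −0.95, SE 0.106, adjusted p = 1.32e-05). Sdf2l1, whose product forms a complex with the BiP co-chaperone ERdj3, had 23.6, 27.6 and 32.0 CPM at day 7, 43.0, 49.5 and 36.1 CPM at day 14 and 62.4, 47.4 and 46.8 CPM in controls. It fell by 0.91 on the log2 scale (SE 0.145, adjusted p = 0.000206). Dnajb11, which encodes ERdj3, had 73.1, 82.4 and 80.6 CPM at day 7, 95.3, 95.1 and 89.8 CPM at day 14 and 108, 109 and 102 CPM in controls. Its groups did not overlap (day 7 change log2 −0.43, SE 0.089, adjusted p = 0.00139). The chaperones Hsp90b1 (log2 −0.16), Hyou1 (−0.25), Dnajc3 (−0.01) and Dnajb9 (0.03) did not pass.

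**Figure D2:**
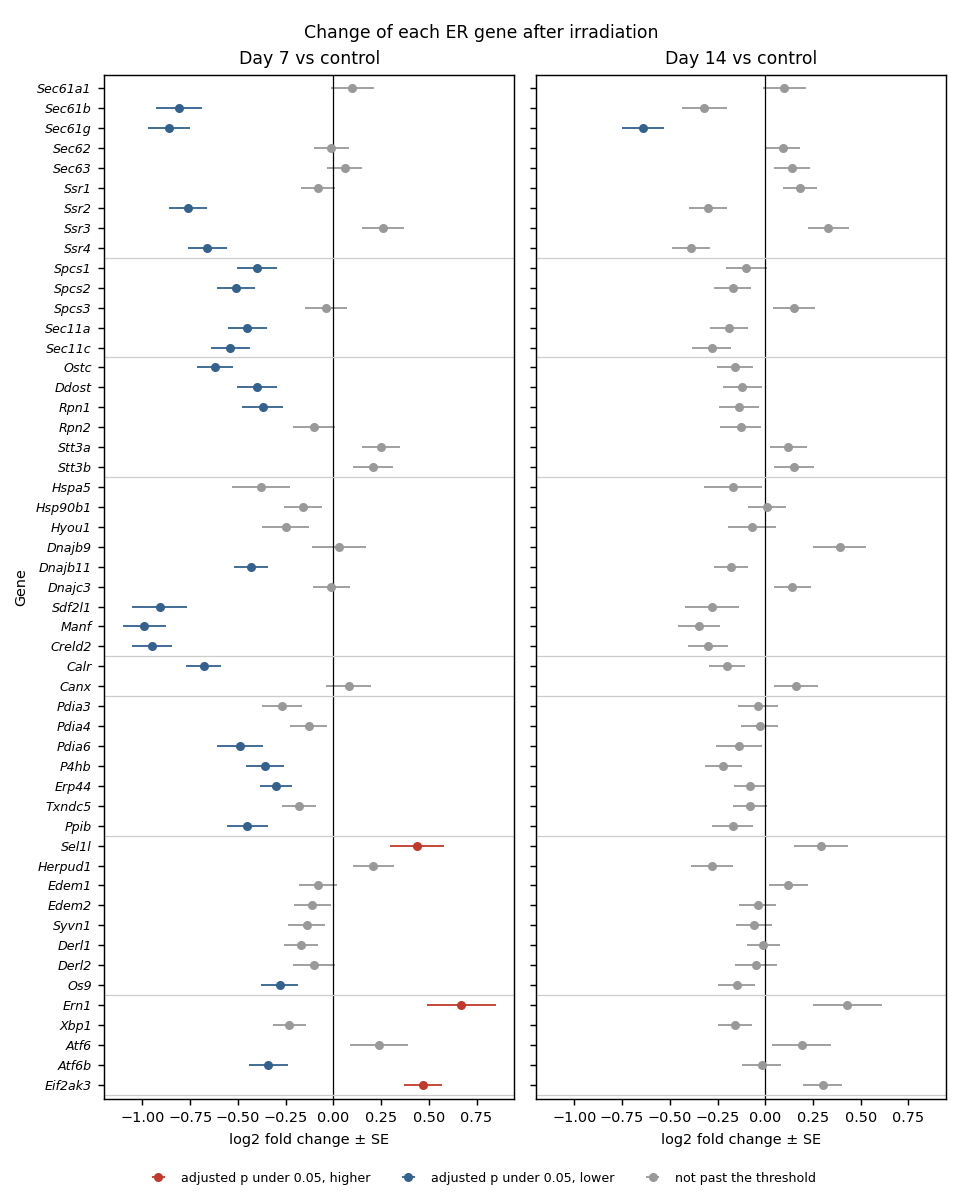
Each point is a gene's log2 fold change against control, at day 7 on the left and day 14 on the right, with its standard error as a bar and genes grouped by role. At day 7 22 points are blue (lower) and 3 red (higher), from Manf at −0.99 to Ern1 at 0.67; at day 14 Sec61g, at −0.64, is the single coloured point.

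The lectin chaperones calreticulin and calnexin hold glycoproteins while they fold. Calr had 344, 353 and 408 CPM at day 7, 497, 559 and 490 CPM at day 14 and 625, 571 and 574 CPM in controls. The 3 groups did not overlap, and the day 7 change was log2 −0.68 (SE 0.094, adjusted p = 5.7e-05). Canx averaged 229 ± 4.33 CPM at day 7 and 216 ± 36.9 CPM in controls (SD, n = 3 each; log2 0.08, adjusted p = 0.638).

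Of the 7 folding catalysts 4 fell and none rose (median log2 −0.30), against 14.8% and 15.8% of all genes. Ppib, the ER peptidyl-prolyl isomerase cyclophilin B, had 106, 119 and 128 CPM at day 7, 138, 155 and 133 CPM at day 14 and 167, 179 and 135 CPM in controls (log2 −0.45, SE 0.108, adjusted p = 0.00416). The disulphide isomerase Pdia6 had 139, 155 and 185 CPM at day 7, 176, 238 and 199 CPM at day 14 and 222, 248 and 205 CPM in controls (log2 −0.49, SE 0.120, adjusted p = 0.00526). In both genes all day 7 libraries were below all controls. P4hb had 1089, 1295 and 1288 CPM at day 7, 1285, 1495 and 1271 CPM at day 14 and 1578, 1676 and 1471 CPM in controls (log2 −0.36, SE 0.099, adjusted p = 0.00911). Erp44, which returns oxidoreductases from the Golgi, had 96.6, 97.6 and 101 CPM at day 7, 110, 117 and 118 CPM at day 14 and 115, 130 and 120 CPM in controls (log2 −0.30, SE 0.086, adjusted p = 0.0122). The calls of P4hb and Erp44 were lost without control library 2, and that of P4hb also without day 7 library 1. Pdia3 (log2 −0.27, adjusted p = 0.0588), Txndc5 (log2 −0.18) and Pdia4 (log2 −0.13) did not pass.

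Of the 8 genes of ER-associated degradation, 1 rose and 1 fell, near the shares over all genes (15.8% rose and 14.8% fell). The median was log2 −0.11. Sel1l, the adaptor of the HRD1 ubiquitin ligase, had 390, 359 and 313 CPM at day 7, 310, 355 and 292 CPM at day 14 and 209, 245 and 330 CPM in controls. Control library 3 lay above a day 7 library, so the groups overlapped (log2 0.44, SE 0.142, adjusted p = 0.03), and the call held in 5 of the 9 omissions of 1 library. Os9, a lectin that delivers misfolded glycoproteins to HRD1, had 279, 327 and 310 CPM at day 7, 314, 360 and 324 CPM at day 14 and 394, 386 and 329 CPM in controls. Its fall of 0.28 on the log2 scale (SE 0.097, adjusted p = 0.0366) also held in 5 of 9 omissions. Neither call was kept after the correction for gene length and GC content described below. Edem1, Edem2, Syvn1 (which encodes HRD1), Derl1 and Derl2 lay between log2 −0.17 and −0.08 without passing, and Herpud1 was at 0.21 (adjusted p = 0.146).

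Among the sensors and Xbp1, 5 genes, 2 rose and 1 fell (15.8% of all genes rose and 14.8% fell). Ern1 had 124, 118 and 100 CPM at day 7, 97.3, 99.6 and 92.2 CPM at day 14 and 50.8, 68.6 and 95.7 CPM in controls. Day 7 lay above all controls, by log2 0.67 (SE 0.181, adjusted p = 0.0165), but control library 3 was close to the irradiated glands. Without that library the change was log2 0.92 (adjusted p = 1.74e-05), and the call was lost without control library 2 or day 7 library 1 or 2. Eif2ak3 (chr6:70844515-70905245) had 208, 218 and 229 CPM at day 7, 180, 222 and 183 CPM at day 14 and 151, 146 and 177 CPM in controls. All irradiated glands lay above all controls (day 7 change log2 0.47, SE 0.101, adjusted p = 0.00199).

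Atf6 had 98.6, 89.2 and 76.6 CPM at day 7, 86.0, 96.5 and 73.1 CPM at day 14 and 61.3, 67.7 and 95.1 CPM in controls. The groups overlapped through control library 3 (log2 0.24, adjusted p = 0.263), and without that library the day 7 change passed, at log2 0.43 (adjusted p = 0.012). With all libraries and the correction for gene length and GC content described below, the change of Atf6 was −0.06 (adjusted p = 0.785). Atf6b, its paralogue, had 56.6, 71.2 and 56.5 CPM at day 7, 78.6, 78.2 and 73.2 CPM at day 14 and 80.8, 79.5 and 72.5 CPM in controls. It fell by 0.34 on the log2 scale (SE 0.104, adjusted p = 0.0198), a call that held in 5 of 9 omissions. Xbp1 had 1120, 1248 and 1258 CPM at day 7, 1273, 1346 and 1201 CPM at day 14 and 1442, 1448 and 1369 CPM in controls. All irradiated glands were below all controls, but the day 7 change of log2 −0.23 (SE 0.088, adjusted p = 0.0517) did not pass. Without control library 3 the change of Xbp1 passed, at log2 −0.28 (adjusted p = 0.016). With all libraries and the length and GC correction it was −0.07 (adjusted p = 0.568). Gene counts do not separate spliced from unspliced Xbp1, so they do not measure IRE1α activity.

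**Figure D3:**
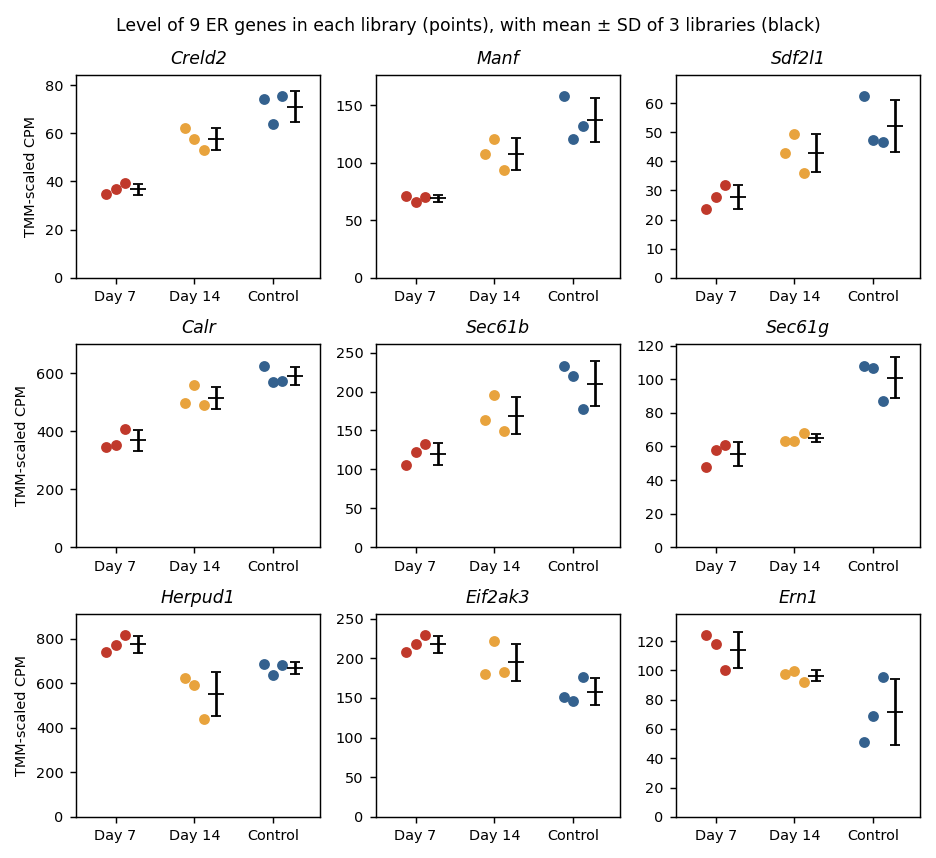
TMM-scaled CPM of 9 genes in each library (points), with the mean and SD of 3 libraries in black, day 7 left, day 14 middle and control right. Creld2, Manf, Sdf2l1, Calr, Sec61b and Sec61g are lowest at day 7, Herpud1 is lowest at day 14, and Eif2ak3 and Ern1 are lowest in controls, where Ern1 ran from 50.8 to 95.7 CPM.

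Genes with the ERSE letters did not move alike at day 7. Of the 8, Creld2, Calr and Pdia6 fell, and Hspa5, Hsp90b1, Canx, Dnajc3 and Syvn1 did not pass, at log2 −0.38 to 0.08. Of the pair with ERSE-II, Dnajb11 fell and Herpud1 did not pass. Over all genes 14.8% fell, and of the 51 genes 43.1% did. These groups of 8 and 2 genes are too small for a statement about the element. Under the length and GC correction described below, Hsp90b1 was lower (log2 −0.30, adjusted p = 0.0131) and Herpud1 higher (log2 0.48, adjusted p = 0.00245).

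Summed over its genes, each role group gave a level per library. The signal peptidase genes summed to 588, 619 and 642 CPM at day 7, 729, 824 and 682 CPM at day 14 and 874, 837 and 768 CPM in controls. The folding catalysts summed to 3203, 3586 and 3727 CPM at day 7, 3824, 4303 and 3672 CPM at day 14 and 4422, 4452 and 3994 CPM in controls. In both, day 7 lay below all controls. The degradation genes summed to 2036, 2133 and 2067 CPM at day 7, 1949, 2067 and 1701 CPM at day 14 and 2016, 1950 and 2028 CPM in controls. There the day 7 glands were above all controls, by a small margin, with Herpud1 as the most abundant gene of the sum. These sums carry no test.

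**Figure D4:**
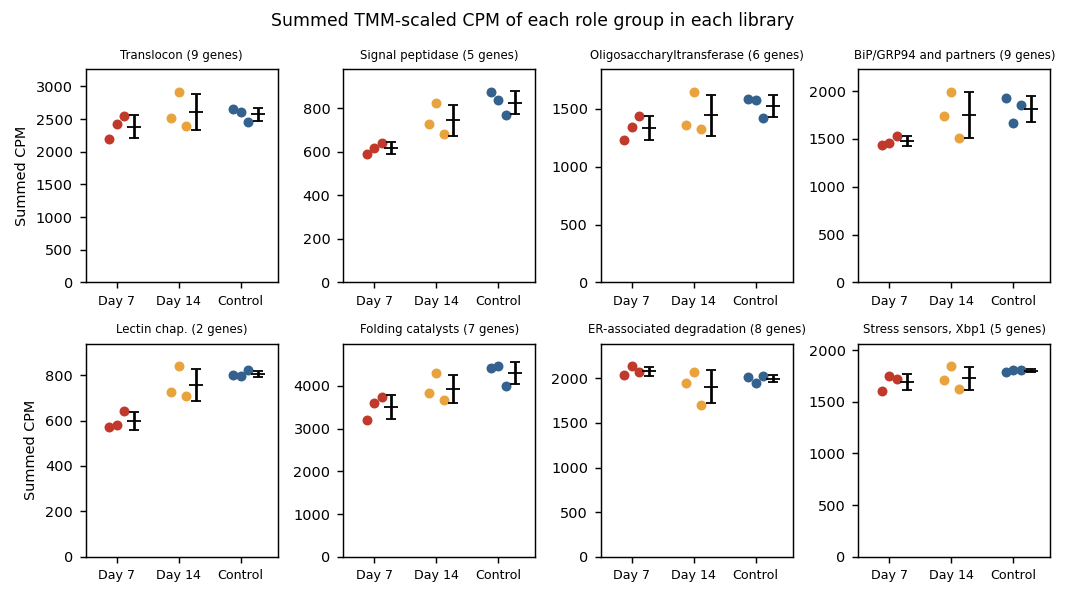
Summed TMM-scaled CPM of the genes of each role in each library (points), with the mean and SD of 3 libraries in black, day 7 left, day 14 middle and control right. Day 7 sums lie below all control sums for signal peptidase (588 to 642 against 768 to 874 CPM), the BiP and GRP94 group, lectin chaperones, folding catalysts and the sensors with Xbp1 (1606 to 1745 against 1785 to 1810 CPM), and day 14 library 2 is the highest day 14 library in every panel. Most of the last sum is Xbp1 (mean 1209 CPM at day 7 and 1419 CPM in controls). The means of Ern1, Eif2ak3 and Atf6 were higher at day 7 than in controls, and that of Atf6b was lower.

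The falls went with gene length. Across the 51 genes, which share libraries and are not independent, the Spearman correlation of the day 7 log2 change with exonic length was 0.6, and over all genes it was 0.423. The median exonic length was 2870 bases for the genes that fell, 4386 for those that did not pass and 8173 for the 3 that rose. After each library was corrected for length and GC content, 22 genes were lower at day 7 (10.6% of all genes were), and 17 of the original 22 were among them. Spcs1, Ddost, P4hb, Os9 and Atf6b no longer passed, and Sec63, Ssr1, Hsp90b1, Edem1 and Derl2 did. Sec61b was then at log2 −0.35 in place of −0.81, Sdf2l1 at −0.43 in place of −0.91, Ssr2 at −0.40 in place of −0.76, Creld2 at −0.53 in place of −0.95 and Manf at −0.88 in place of −0.99. The genes higher were then Eif2ak3 (log2 0.38) and Herpud1 (0.48), against 9.54% of all genes, while Ern1 (0.49, adjusted p = 0.0803) and Sel1l (0.20, adjusted p = 0.257) did not pass. The median of the 51 genes was −0.22 with this correction. The part of RNA length or quality in these changes was not tested.

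**Figure D5:**
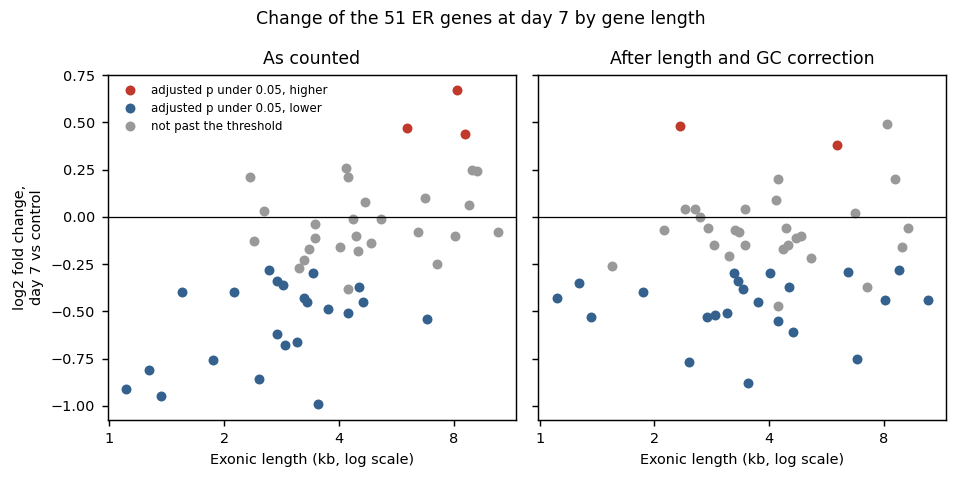
Log2 fold change at day 7 against control for the 51 genes, by exonic length on a log scale, as counted (left) and after the length and GC correction (right). On the left shorter genes tend to lie lower (Spearman 0.6) and 22 genes are blue; on the right 22 genes are again blue, spread over all lengths.

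The scaling of libraries also bears on the direction. Scaled by library totals without TMM, the median change over all genes at day 7 was log2 0.22, and the 51 genes had a median of −0.03, so their distance of −0.25 from all genes was as with TMM. Counts were then 10 higher (against 28.2% of all genes) and 13 lower (against 6.66%), and all 13 were among the 22. The translocon and degradation medians, −0.08 and −0.11 with TMM, were 0.12 and 0.10 with library totals, while those of signal peptidase (−0.24), the BiP and GRP94 group (−0.18), lectin chaperones (−0.10) and folding catalysts (−0.10) were still below 0. Of all calls at day 7, 51.6% were higher with TMM and 80.9% with library totals.

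The comparison of day 14 with control asks what of this was present a further week on. At day 14 Sec61g alone passed, lower by log2 −0.64 (1.55-fold, SE 0.110, adjusted p = 0.0155), and no gene of the 51 was higher. Over all genes 0.632% were lower and 1.13% higher, 1.76% in either direction, and the median change of the 51 genes was log2 −0.08 against 0.01 over all genes. The libraries did not overlap in 11 of the 51 genes (21.6%, against 23.1% of all genes). At an unadjusted p under 0.05 there were 13 of the 51 (21.3% of all genes were). DESeq2 found 0 higher and 5 lower, against 4.87% and 3.65% of the 11769 genes it gave an adjusted p. Limma-voom found 0 higher and 2 lower, against 1.09% and 0.697% of all genes. After the length and GC correction Sec61g was again the single gene called (against 0.339% of all genes lower and 0.547% higher). Library totals without TMM gave 4 higher (against 8.18% of all genes) and 1 lower (against 0.443%).

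The call of Sec61g was lost without control library 1 or 2. Leaving out control library 3, which stands apart, gave 5 higher and 8 lower. The higher genes were Ssr3, Dnajb9, Sel1l, Ern1 and Eif2ak3 (log2 0.36 to 0.66). The lower genes were Sec61g, Sec61b, Ssr2, Ssr4, Sec11c, Manf, P4hb and Ppib (log2 −0.77 to −0.30). In that fit 6.99% of all genes were higher and 5.31% lower. With all libraries, Manf was at log2 −0.35 (adjusted p = 0.0861), Creld2 at −0.30 (adjusted p = 0.107), Ern1 at 0.43 (adjusted p = 0.206) and Eif2ak3 at 0.30 (adjusted p = 0.0974). A p that misses the threshold does not show that day 14 and control were alike.

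Day 14 was also set against day 7, which tests the difference between the irradiated groups directly, with libraries shared with the comparisons above. Of the 51 genes 8 were higher at day 14 (15.7%, against 3.72% of all genes) and 1 was lower (against 2.87%; 6.59% of all genes passed in either direction), and the median was log2 0.19 against 0.00 over all genes. The libraries did not overlap in 23 genes (45.1%, against 29.4% of all genes). Higher were Creld2 (log2 0.65, SE 0.106, adjusted p = 0.0014), Manf (0.64, SE 0.111, adjusted p = 0.00216), Sdf2l1 (0.63, SE 0.145, adjusted p = 0.0162) and Calr (0.49, SE 0.094, adjusted p = 0.00507). Sec61b (0.49), Ssr2 (0.46), Ostc (0.46) and Spcs2 (0.34) were also higher, with adjusted p between 0.0077 and 0.041. Creld2, Manf and Calr passed in all 9 omissions of 1 library, and Ostc in 8. Ssr2 passed in 6, Sdf2l1 and Sec61b in 5 each, and Spcs2 in 3. Sec61g was not among the higher genes, at log2 0.22 (adjusted p = 0.238). The length and GC correction gave 8 higher (against 3.71% of all genes) and 1 lower (against 2.53%), and library totals without TMM gave 7 higher (against 2.11%) and 1 lower (against 5.11%).

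Herpud1 was the gene that was lower at day 14 than at day 7, and its values are given because of that result. It encodes a membrane protein that assembles the HRD1 degradation complex. It had 625, 593 and 440 CPM at day 14, against 741, 772 and 816 CPM at day 7, and 687, 636 and 684 CPM in controls. All day 14 libraries lay below all controls and all day 7 libraries above them. The difference of day 14 from day 7 was log2 −0.49 (SE 0.109, adjusted p = 0.0122), and it was lost without day 14 library 3 or day 7 library 2. Against control, Herpud1 passed at neither time (log2 −0.28 at day 14, adjusted p = 0.154).

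Other genes of the same pathways were counted from lists. Over all genes tested, 14.8% were lower and 15.8% higher at day 7 against control, the shares to set beside these counts. At day 7 against control, the signal recognition particle and its receptor had 5 of 10 genes lower and 2 higher. Lower were Srprb (log2 −0.72) and Srp14 (−0.66), and Srp72, a protein of the same particle, was higher (0.45). Of the 10 genes of the EMC, which inserts membrane proteins, 3 were lower, led by Emc10 (−0.49), and 2 higher. Of 22 further genes of oligosaccharyltransferase and of the glycan precursor, 9 were lower and 2 higher. The small subunits Tmem258 (−0.99), Ost4 (−0.88) and Dad1 (−0.73) were among the lower ones.

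Of 33 further folding genes, 13 were lower and 3 higher. Fkbp2 (log2 −0.97) and Fkbp11 (−0.76), both prolyl isomerases of the FKBP family, were lower. Dnajc10, the reductase ERdj5, was higher, at 1271 ± 74.0 CPM at day 7 and 784 ± 70.1 CPM in controls (SD, n = 3 each; log2 0.70, SE 0.097, adjusted p = 5.82e-05). Agr2, a disulphide isomerase needed for mucin production, did not pass (log2 −0.46, adjusted p = 0.0523). Of 23 further degradation genes 7 were lower, led by the ubiquitin-conjugating enzyme Ube2g2 (−0.85), and 4 higher. Of the 7 genes of glycan trimming, Edem3 was higher (0.43) and none was lower. The medians of these 6 lists ran from log2 −0.25 to 0.19 with TMM and from −0.04 to 0.39 with library totals.

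The counts of these lists at day 7 moved with the processing. Over all genes 10.6% were lower and 9.54% higher after the length and GC correction, and 6.66% and 28.2% with library totals. After the length and GC correction the folding genes had 6 lower and 1 higher, and with library totals 6 lower and 6 higher. The degradation genes had 4 lower and 1 higher after the correction, and 5 lower and 8 higher with library totals. The oligosaccharyltransferase and precursor genes had 7 lower and 1 higher, and 6 lower and 5 higher. The signal recognition particle genes had 4 lower and 2 higher, and 3 lower and 3 higher, and the EMC genes 3 lower and 0 higher, and 1 lower and 2 higher. Glycan trimming had 1 lower and 0 higher after the correction, where Edem3 did not pass, and 0 lower and 4 higher with library totals. Of the genes named from these lists, Srprb, Srp14, Srp72, Emc10, Tmem258, Ost4, Dad1, Fkbp2, Fkbp11, Dnajc10 and Ube2g2 passed in the same direction after the correction.

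Of 10 genes of the PERK arm, 3 fell and none rose at day 7 (14.8% of all genes fell and 15.8% rose). Atf4, whose translation PERK favours, averaged 298 CPM at day 7 and 443 CPM in controls (n = 3 each; log2 −0.57, SE 0.122, adjusted p = 0.0021), and Nupr1 fell by 0.45 on the log2 scale. Neither passed after the length and GC correction. The remaining gene of the 3 that fell kept its call there. It was the only gene of the arm lower, and none was higher (10.6% and 9.54% of all genes were). With library totals 1 was lower and 1 higher (against 6.66% and 28.2% of all genes). Ddit3, which encodes the pro-apoptotic factor CHOP, did not pass at day 7 (log2 −0.01, adjusted p = 0.961). Sesn2, a stress-inducible gene, fell at day 14 to 18.3 ± 3.86 CPM, against 53.5 ± 18.2 CPM in controls (SD, n = 3 each; log2 −1.55, SE 0.261, adjusted p = 0.0335), a call that held in 4 of 9 omissions and was lost after the length and GC correction. At day 14 against control 0.632% of all genes were lower and 1.13% higher. The other genes of these pathway lists called there were Tmem258 (−0.55), Dpm3 (−0.67) and Derl3 (−0.70), all lower, and Dnajc10 (0.51), which was higher. After the correction Dnajc10 alone of these passed. Their calls held in 5, 4, 8 and 5 of the 9 omissions, in the order given.

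Of 12 tested regulators of ER gene transcription, 2 fell and 1 rose at day 7 (14.8% of all genes fell and 15.8% rose). Bhlha15 (MIST1), which maintains secretory cell architecture, averaged 320 ± 5.51 CPM at day 7 and 440 ± 29.1 CPM in controls (SD, n = 3 each; log2 −0.46, SE 0.095, adjusted p = 0.00135). Spdef, a regulator of mucous secretory cells, fell by 0.62 on the log2 scale (adjusted p = 0.000768), and Mbtps2, the protease that completes ATF6 cleavage, rose by 0.70 (adjusted p = 0.00997). Bhlha15 and Spdef passed after the length and GC correction, and Mbtps2 did not. The counts were then 2 lower and 2 higher (against 10.6% and 9.54% of all genes). With library totals they were 2 lower and 5 higher (against 6.66% and 28.2%). Creb3l1 did not pass (log2 −0.01, adjusted p = 0.947). Ern2, the IRE1β of mucous epithelia, was below the filter, with 19 counts over the 3 libraries at day 7, 19 at day 14 and 1 in controls. Single libraries held 0 to 14 counts, too few and too uneven to compare the groups.

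Markers of acinar and other cells were counted in the same way. Over all genes 14.8% fell and 15.8% rose at day 7, and 10.6% were lower and 9.54% higher after the length and GC correction. Of 10 tested acinar markers, which include Bhlha15 and Spdef, 7 fell and 1 rose at day 7, and after the length and GC correction 5 were lower and none higher. The acinar list summed to 234600 to 251397 CPM at day 7, 256960 to 283914 CPM at day 14 and 261079 to 350815 CPM in controls. Of 9 tested plasma cell markers, 3 fell (Mzb1, Ighm and Derl3), none of which passed after the correction, and the calls of Mzb1 and Ighm held in 6 of 9 omissions. The plasma cell list summed to 112 to 467 CPM at day 7, 143 to 1386 CPM at day 14 and 425 to 1693 CPM in controls, and Tnfrsf17 was below the filter, with 0 to 6 counts per library. No marker of either list was at 0 in all libraries. Of 12 duct markers 5 fell and 2 rose (2 lower and 1 higher after the correction), and their sums ran from 2994 to 3247 CPM at day 7, 2982 to 3661 CPM at day 14 and 4346 to 5936 CPM in controls. Of 9 macrophage markers 3 fell and 1 rose at day 7 (none lower and 1 higher after the correction), with sums of 150 to 215 CPM at day 7, 296 to 365 CPM at day 14 and 224 to 249 CPM in controls. Of 6 fibroblast markers 3 rose (2 higher and 1 lower after the correction), with sums of 407 to 494 CPM at day 7, 397 to 506 CPM at day 14 and 354 to 381 CPM in controls. Of 13 mitochondrially encoded genes 7 fell and 1 rose at day 7 (2 lower and 1 higher after the correction), and they summed to 21489 to 24721 CPM at day 7, 23105 to 24464 CPM at day 14 and 24357 to 26086 CPM in controls. At day 14 against control 0.632% of all genes were lower and 1.13% higher. The markers of these lists called there were, beside Derl3, the duct marker Klk1 (log2 −0.98, lower), Mertk of macrophages (0.47, higher) and mt-Nd5 (0.51, higher). Their calls held in 3, 2 and 4 of the 9 omissions, and that of Klk1 was lost after the correction. The part of cell composition or RNA quality in the ER gene results was not tested.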

How the data were processed

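RNA of sublingual gland sections was DNase-treated, per the labels' protocols. The authors deposited whole-number counts per gene for each library, without normalisation. The build mm10 and the tools STAR, featureCounts and DESeq2 are named in the submitters' processing notes; no version, annotation or strand setting is given in the sources used here. Identifiers were matched to GENCODE M21 symbols (54495 of 54532), and gene coordinates are GRCm38. Of the 51 genes, 16 overlap exons of a gene on the other strand, whose reads could not be told apart without strand.

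Counts were tested with edgeR 4.0.16 (R 4.3.3): filterByExpr, TMM scaling, 3 groups fitted on all 9 libraries (6 residual degrees of freedom), robust two-sided quasi-likelihood F test, Benjamini-Hochberg adjusted p under 0.05 over 15348 genes. Levels are TMM-scaled CPM. The scripts were tested on simulated data. Within a group no pair of libraries was as close as sampling noise. Alternatives were DESeq2 1.42.0 (test and size factors), limma-voom (limma 3.58.1), a scaling without the 20 most abundant genes, other filters, only the libraries compared, a replicate block, a per-library correction for exonic length and GC content (splines, 5 degrees of freedom) and each library left out. Library totals without TMM were added after seeing the data. The genes and lists were chosen with earlier results of these data known.

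Values in every library are given for the sensors, Xbp1 and Hspa5, and in each other role for up to 4 genes that passed at day 7 with the smallest p, plus up to 3 each for the comparisons of day 14. Of each further list up to 3 called genes with the smallest p are named, with Atf4, Ddit3, Ern2, Agr2, Creb3l1 and Bhlha15. Herpud1, and the genes named outside this rule, were chosen after their values were seen.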

Additional observations from a re-analysis of the deposited data

Results flagged for a closer look

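In 9 of the 51 genes the change from control differed between the irradiated groups by edgeR's test of day 14 against day 7 (adjusted p under 0.05). The share was 17.6%, against 6.59% of all genes. The log2 difference, day 14 minus day 7, was 0.65 for Creld2, 0.64 for Manf, 0.63 for Sdf2l1, 0.49 for Calr, 0.49 for Sec61b, 0.46 for Ssr2, 0.46 for Ostc, 0.34 for Spcs2 and −0.49 for Herpud1. In each of the 9 the libraries of the 2 groups did not overlap, against 29.4% of all genes. The 9 were chosen by p on these same libraries, so this adds no separate support. After the length and GC correction 7 of the 8 higher genes passed, Sec61b being the exception at log2 0.32, and Herpud1 passed at −0.60. Day 14 library 2 was the highest day 14 library in the sum of every role group, and without it 4 of the 8 passed.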

How the results depend on the processing

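Leaving out each of the 9 libraries in turn gave 1 to 5 higher and 18 to 25 lower genes at day 7 against control, 0 to 5 higher and 0 to 8 lower at day 14 against control, and 4 to 8 higher and 0 to 1 lower at day 14 against day 7. At day 7, 1 gene was higher without control library 2 or without day 7 library 1 or 2, and 5 without control library 3. At day 14 against control, none was lower without control library 1 or 2, and 2 were without day 7 library 1. At day 14 against day 7, 4 were higher without day 7 library 2 or without day 14 library 1 or 2, 5 without day 7 library 1, and none was lower without day 7 library 2 or day 14 library 3. Without control library 3, 17.3% of all genes were higher and 16.4% lower at day 7, and 6.99% and 5.31% at day 14 against control. Shares over all genes are not given here for the other omissions. The counts of those omissions therefore do not measure how steady the ER genes are beside other genes. Library totals without TMM, added after seeing the data, gave 10 higher and 13 lower at day 7 (against 28.2% and 6.66% of all genes). For day 14 against control 4 were higher (against 8.18%). The all-gene median there moved to 0.13 (64.1% of calls higher with TMM, 94.9% with totals). For day 14 against day 7 it moved to −0.08 (56.5% and 29.2% of calls higher). For day 14 against control, no filter on low counts gave 4 higher and 4 lower, DESeq2's Wald test gave 5 lower, and DESeq2 size factors, the scaling without the 20 most abundant genes, a minimum of 1 CPM in 3 libraries and limma-voom gave 2 lower. Over all genes 3.65% were lower by DESeq2's Wald test and 0.697% by limma-voom. Of the 15348 genes, 136 were lower with size factors and 135 without the 20 most abundant genes, against 97 with TMM. Shares over all genes are not given here for the other filters. Under the length and GC correction Sec63 turned to −0.28 at day 7, also with the replicate block. The cause was not tested.

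The replicate numbers were not taken to pair libraries, since the labels do not say what a number shares and same-numbered libraries had deviations correlated at −0.112 to 0.037. With the replicate block 2 genes were higher and 22 lower at day 7, 0 and 1 at day 14 against control, and 7 and 1 at day 14 against day 7. With the block and the length and GC correction the counts were 2 and 23, 0 and 1, and 8 and 1. Shares over all genes are not given here for the fits with the block, so these counts are not set against them. With 3 libraries a group, small changes of single genes, such as that of Hspa5 at day 7, passed or missed the threshold by setting.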
